A study of Homo sapiens with 6 samples.

Results

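The genes described here are 10 regulators of mitotic entry, namely the kinase CDK1, the cyclins CCNA2, CCNB1 and CCNB2, the phosphatases CDC25A, CDC25B and CDC25C, and the kinases WEE1, PLK1 and AURKA. They were chosen by name for their place in the CDK1 pathway, with earlier results of these data known, from 60719 genes in the deposited tables. Gene identifiers were matched to symbols through GENCODE, and all 10 genes were among the 16763 genes with enough counts to be tested.

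RNA was sequenced from human pluripotent stem cells (hPSCs), with 3 libraries from simulated microgravity (sµg) and 3 from normal gravity (1g). The labels name H1 and H9, established human embryonic stem cell lines, for every library, and no label assigns a library to a line. Cells in both conditions adhered to Matrigel-coated chamber slides in StemFlex medium, were seeded with a ROCK inhibitor, and were then kept for 96 h in their condition. In sµg the slides were full of medium and rotated fast on a 2-D clinostat, whose axis stands perpendicular to gravity, while in 1g they stayed static, so that rotation and altered gravity cannot be told apart. Whether replicate libraries were separate cultures is not stated, so p-values here reflect the spread among libraries, which may be technical. As a check of the labelled cell type, POU5F1 had 1877, 1890 and 2147 CPM in sµg and 1952, 1935 and 1947 CPM in 1g, CPM being the count of a gene scaled by the effective size of its library.

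A cell enters mitosis when CDK1, bound to a B-type cyclin, becomes active. WEE1 holds the complex in check by phosphorylating CDK1, the CDC25 phosphatases remove that phosphate, and PLK1, itself activated by AURKA, tips the balance by acting on both CDC25C and WEE1. Human pluripotent stem cells are known for a short G1 phase and rapid division, so that a large share of them is in S, G2 or M phase at any time.

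Many genes of this pathway are transcribed together late in the cell cycle, and their promoters often carry CCAAT boxes, bound by the factor NF-Y, and a CHR element, bound by the DREAM and MuvB complexes. Promoter sequences of 6 of the genes are therefore shown, each the 250 bases before a RefSeq start on GRCh38.p14, read 5′ to 3′ along the gene. Capitals mark CCAAT (or ATTGG, the same box on the other strand) and the CHR spellings TTTGAA or TTCGAA. Other spellings of the CHR element were not searched, so a window without these may still hold such an element. Shown are the 3 genes that were higher in sµg (CDK1, CCNA2, CCNB1). CCNB2 and PLK1, which did not pass the test and carry both motifs, are also shown. CDC25C likewise did not pass the test and carries both motifs, but is not shown. For CDC25B, which was lower, the window shown lies before the start that the transcripts CDC25B-201 and CDC25B-205 use. It is not the window nearest to the main transcript of that gene.
CDK1: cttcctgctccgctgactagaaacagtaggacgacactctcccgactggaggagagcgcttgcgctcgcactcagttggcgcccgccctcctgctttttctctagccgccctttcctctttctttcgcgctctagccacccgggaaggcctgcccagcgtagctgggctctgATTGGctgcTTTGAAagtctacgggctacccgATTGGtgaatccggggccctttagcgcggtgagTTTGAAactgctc
CCNA2: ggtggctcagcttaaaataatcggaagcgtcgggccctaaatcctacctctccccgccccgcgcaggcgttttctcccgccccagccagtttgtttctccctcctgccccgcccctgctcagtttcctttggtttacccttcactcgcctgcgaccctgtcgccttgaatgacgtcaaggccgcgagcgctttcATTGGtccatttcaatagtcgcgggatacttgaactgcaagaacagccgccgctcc
CCNB1: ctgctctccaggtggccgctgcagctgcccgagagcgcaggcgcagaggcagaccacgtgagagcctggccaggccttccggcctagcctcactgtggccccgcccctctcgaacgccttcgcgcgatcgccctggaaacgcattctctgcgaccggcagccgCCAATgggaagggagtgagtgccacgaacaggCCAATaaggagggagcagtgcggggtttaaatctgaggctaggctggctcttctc
CCNB2: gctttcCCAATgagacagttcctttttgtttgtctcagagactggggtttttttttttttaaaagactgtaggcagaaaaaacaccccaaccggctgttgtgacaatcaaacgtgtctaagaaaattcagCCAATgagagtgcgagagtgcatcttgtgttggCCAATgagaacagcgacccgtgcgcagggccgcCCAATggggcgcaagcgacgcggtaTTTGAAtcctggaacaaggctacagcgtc
PLK1: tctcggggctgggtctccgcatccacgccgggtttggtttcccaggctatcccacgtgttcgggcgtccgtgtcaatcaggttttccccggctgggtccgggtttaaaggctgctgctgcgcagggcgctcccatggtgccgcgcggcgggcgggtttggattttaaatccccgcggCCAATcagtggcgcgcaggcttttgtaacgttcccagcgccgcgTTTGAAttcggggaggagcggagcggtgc
CDC25B: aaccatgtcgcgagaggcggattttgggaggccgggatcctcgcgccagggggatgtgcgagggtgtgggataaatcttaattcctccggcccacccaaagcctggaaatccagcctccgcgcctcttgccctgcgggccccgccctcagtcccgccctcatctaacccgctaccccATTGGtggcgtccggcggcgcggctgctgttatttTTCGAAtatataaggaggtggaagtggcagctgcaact
The CDK1 window lies at chr10:60778228-60778477 on the forward strand and held 2 CCAAT boxes and 2 copies of TTTGAA. The windows of CCNA2 at chr4:121823884-121824133 on the reverse strand and CCNB1 at chr5:69166900-69167149 on the forward strand held 1 and 2 CCAAT boxes. Neither held a CHR spelling of those searched. CCNB2, with its window at chr15:59104896-59105145 on the forward strand, had 4 CCAAT boxes and 1 TTTGAA, and PLK1, at chr16:23678639-23678888 on the forward strand, had 1 of each. The CDC25B window at chr20:3796060-3796309 on the forward strand held 1 CCAAT box and 1 TTCGAA. That start took 16.1 ± 8.25% of the gene in sµg and 23.2 ± 5.45% in 1g (SD, n = 3 each). The window nearest to the main transcript, CDC25B-203, lies at chr20:3786701-3786950 and held 0 copies of the CCAAT box and 0 of either CHR spelling. CDC25B-203 starts at 3786772, inside that window, so most of the window lies within the transcript and not before it.

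RefSeq windows were matched for 8 of the 10 genes, and WEE1 and AURKA were not matched. In the window nearest to each gene's most abundant transcript, 7 of the 8 genes held CCAAT, 4 held it at least 2 times, 4 held TTTGAA (CDK1, CCNB2, CDC25C and PLK1) and 0 held TTCGAA. Both strands were searched, and no match in the printed windows shares a base with another. Of all 35116 windows of the same length, 32% held CCAAT, 9.53% held it at least 2 times, 13.3% held TTTGAA and 1.19% held TTCGAA. These are matches of letters only. The 4 genes with TTTGAA held 1 gene that was higher in sµg and 3 that did not pass the test.

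Of the 10 genes, 3 were higher in sµg (CDK1, CCNB1 and CCNA2), 1 was lower (CDC25B) and 6 did not pass the test, at an adjusted p under 0.05 from the quasi-likelihood test of edgeR, adjusted after Benjamini and Hochberg. The 4 called genes stand against 33.7% of all genes tested, the 3 higher genes against 15.5% and the 1 lower gene against 18.2%. All of the changes were small, and the fitted ratio of sµg to 1g ran from 0.737 for CDC25B to 1.2 for CDK1. Their median log2 fold change was 0.05, beside 0.00571 over all genes tested, 0.248 over the genes called higher and −0.427 over those called lower. For 5 of the 10 genes the ranges of the 2 conditions did not overlap, against 45.5% of all genes. In bulk RNA such a difference can come from another share of cells in G2 and M phase or from another amount of RNA per cell, which cannot be told apart here.

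Before the single genes, 1 library needs mention. The counts of sµg replicate 3 differed from those of sµg replicates 1 and 2 with a chi-square of 6.23 and 5.93 per degree of freedom, while those 2 differed from each other with 1.63 and the 1g libraries with 1.78 to 2.22. Without it the same 3 genes were higher and CDC25B was lower, and AURKA was called higher as well. Expected counts per library summed to 19971097 to 20588215 in sµg and to 20876937 to 28506848 in 1g, and the lowest expected count of any of the 10 genes in any library was 616.

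**Figure D1:**
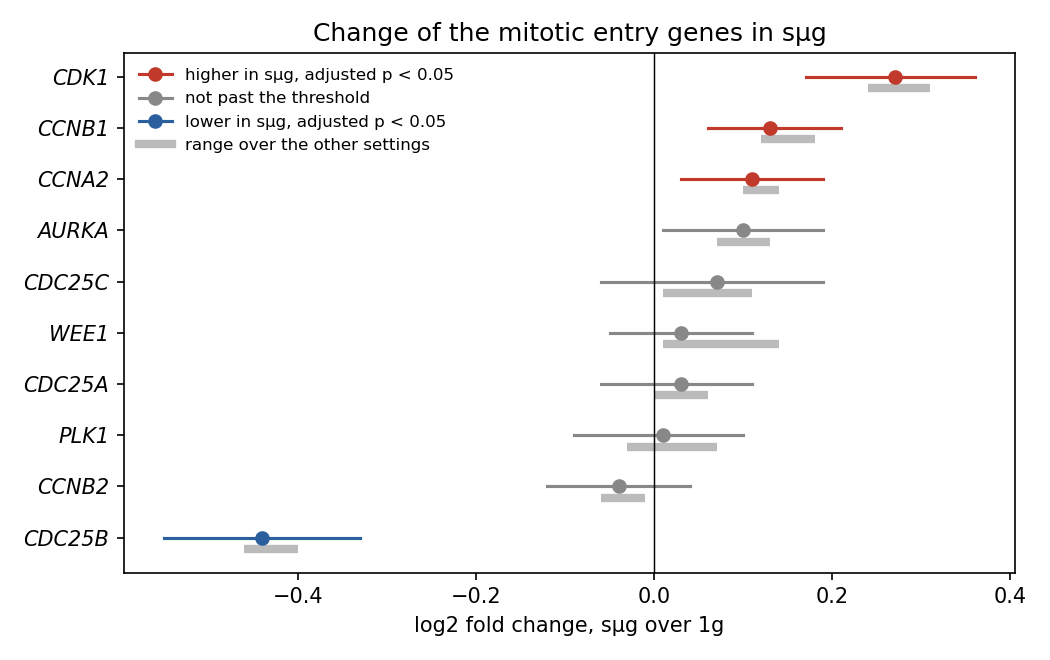
Log2 fold change of sµg over 1g for the 10 mitotic entry genes, with points for the edgeR estimate, lines for its 95% confidence interval and grey bars for the range of estimates over the 17 other settings. The intervals of CDK1, CCNB1 and CCNA2 lie above 0, as does that of AURKA, which missed the adjusted threshold, and the interval of CDC25B, from −0.55 to −0.33, lies below 0.

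CDK1, the kinase whose activity drives the cell into mitosis (ENSG00000170312.16, chromosome 10 from 60778331 to 60794852, forward strand), was the gene with the largest rise of the 10. It had 123, 116 and 128 CPM in sµg replicates 1, 2 and 3, against 105, 98.1 and 102 CPM in 1g replicates 1, 2 and 3. The groups did not overlap, and the lowest sµg library stood above the highest 1g library. The log2 fold change was 0.27 (1.2-fold, standard error 0.0437, 95% confidence interval 0.17 to 0.36, adjusted p = 0.000118 from edgeR). Per unit of length CDK1 stood at 108 ± 5.88 TPM in sµg and 87.4 ± 2.07 TPM in 1g (SD, n = 3 each), TPM being a level relative to transcript length and to all transcripts of the library.

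Of the mitotic cyclins, CCNB1 and CCNA2 were higher in sµg and CCNB2 did not pass the test. CCNB1, the cyclin that carries most CDK1 into mitosis (ENSG00000134057.15, chromosome 5 from 69167135 to 69178245, forward strand), had 276, 278 and 290 CPM in sµg, against 261, 254 and 253 CPM in 1g. Every sµg library was above every 1g library, and the log2 fold change was 0.13 (1.10-fold, standard error 0.0359, 95% confidence interval 0.06 to 0.21, adjusted p = 0.00698 from edgeR). CCNA2, whose product works with CDK2 in S phase and with CDK1 in G2 (ENSG00000145386.11, chromosome 4 from 121816444 to 121823883, reverse strand), had 150, 154 and 147 CPM in sµg and 140, 137 and 141 CPM in 1g. The groups did not overlap, with a log2 fold change of 0.11 (1.08-fold, standard error 0.0365, 95% confidence interval 0.03 to 0.19, adjusted p = 0.0246 from edgeR). The CCNA2 call was lost without any one of 5 libraries, with adjusted p = 0.063, 0.109 and 0.0641 without 1g replicates 1, 2 and 3 and adjusted p = 0.0607 and 0.106 without sµg replicates 1 and 2, all from edgeR. CCNA2 also shares 578 bases with EXOSC9 on the opposite strand, a gene that did not pass the test and had 1847 counts on average in sµg and 2091 in 1g.

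CCNB2, a second B-type cyclin that is found mainly at the Golgi apparatus (ENSG00000157456.8, chromosome 15 from 59105126 to 59125045, forward strand), had 108, 110 and 111 CPM in sµg, against 110, 112 and 116 CPM in 1g. These ranges overlapped, and the log2 fold change was −0.04 (95% confidence interval −0.12 to 0.04, adjusted p = 0.467 from edgeR). Summed over the 3 cyclins, the level was 491 ± 6.91 TPM in sµg and 450 ± 5.28 TPM in 1g (SD, n = 3 each). Within that sum CCNB1 took 60.1, 59.7 and 60.7% in sµg and 58.8, 58.1 and 57.0% in 1g. CCNB2 took 23.8, 24.0 and 23.9% in sµg and 25.5, 26.2 and 27.1% in 1g, and neither share overlapped between the conditions. These shares depend on each other, so a higher CCNB1 level alone lowers the CCNB2 share. The TPM of CCNB2 itself overlapped, at 116 to 119 in sµg and 116 to 121 in 1g. With 3 libraries against 3, an exact permutation test of a share could not go below p = 0.1, and none was made.

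The CDC25 phosphatases did not move together. CDC25B, which acts on CDK1 early in mitotic entry, at the centrosome (ENSG00000101224.17, chromosome 20 from 3786772 to 3806121, forward strand), was the 1 gene of the 10 that was lower in sµg, and by the widest margin. It had 29.7, 31.1 and 30.1 CPM in sµg, against 41.8, 40.1 and 41.2 CPM in 1g. No library of either condition came near the other condition, and the log2 fold change was −0.44 (0.737-fold, standard error 0.0507, 95% confidence interval −0.55 to −0.33, adjusted p = 2.12e-06 from edgeR). CDC25A, which removes inhibitory phosphates from CDK2 at the G1/S boundary and from CDK1 later (ENSG00000164045.12, chromosome 3 from 48157146 to 48188417, reverse strand), had 125, 126 and 122 CPM in sµg and 119, 127 and 120 CPM in 1g. The ranges overlapped, with a log2 fold change of 0.03 (95% confidence interval −0.06 to 0.11, adjusted p = 0.649 from edgeR). CDC25C, a substrate of PLK1 (ENSG00000158402.20, chromosome 5 from 138285269 to 138338355, reverse strand), had 30.9, 30.6 and 33.6 CPM in sµg and 28.5, 30.6 and 31.9 CPM in 1g. Its log2 fold change was 0.07 (95% confidence interval −0.06 to 0.19, adjusted p = 0.421 from edgeR). CDC25C shares 6421 bases with FAM53C on the opposite strand, which was lower in sµg, so reads of both may have been mixed.

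Taken per unit of length and as parts of their sum, the phosphatases were made up differently in the 2 conditions. CDC25B made up 15.5, 16.5 and 15.3% of the summed CDC25 TPM in sµg, against 22.4, 19.3 and 20.1% in 1g, without overlap. CDC25A made up 58.3, 56.7 and 55.8% in sµg and 53.7, 55.7 and 51.9% in 1g, where the lowest sµg library stood just above the highest 1g library. Shares of the same sum depend on each other, so a lower CDC25B share alone raises the other shares. The TPM of CDC25A itself overlapped, at 52.2 to 56.0 in sµg and 50.4 to 56.7 in 1g. The share of CDC25C overlapped, with 26.2, 26.8 and 28.8% in sµg and 23.9, 25.0 and 28.0% in 1g. The sum itself overlapped too, at 95.3 ± 1.51 TPM in sµg and 98.3 ± 4.12 TPM in 1g (SD, n = 3 each).

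**Figure D2:**
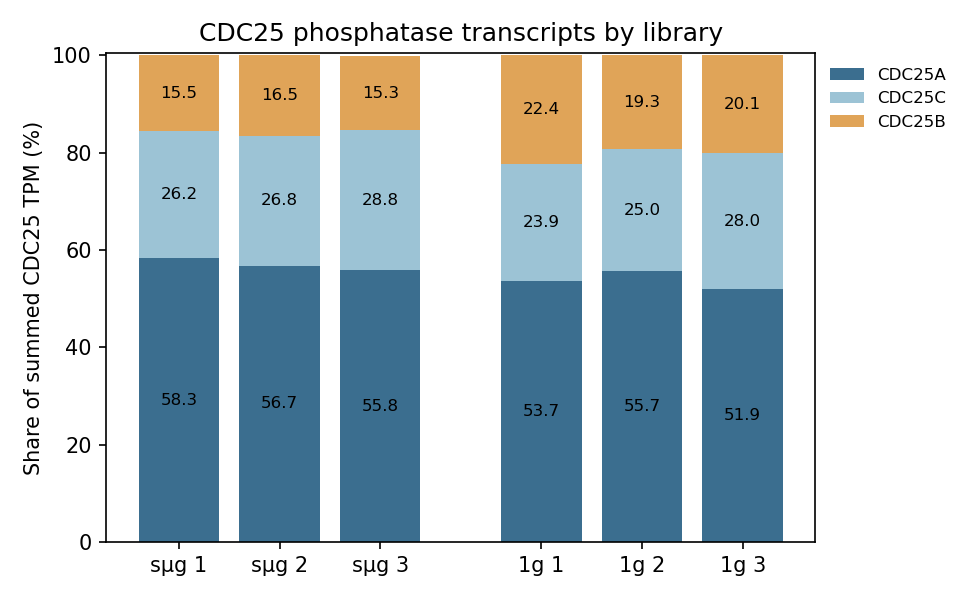
Share of the summed CDC25 TPM (in percent) taken by CDC25A, CDC25C and CDC25B in each of the 3 sµg and 3 1g libraries, 1 stacked bar per library. The CDC25B segment is 15.3 to 16.5% in sµg and 19.3 to 22.4% in 1g.

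WEE1, the kinase that opposes the CDC25 phosphatases by phosphorylating CDK1 on tyrosine (ENSG00000166483.11, chromosome 11 from 9573670 to 9593457, forward strand), did not pass the test. It had 117, 122 and 118 CPM in sµg, against 115, 118 and 116 CPM in 1g, and these ranges overlapped. The log2 fold change was 0.03 (95% confidence interval −0.05 to 0.11, adjusted p = 0.573 from edgeR). On the TPM scale the same gene had 80.9, 85.4 and 79.2 in sµg and 70.5, 76.2 and 75.7 in 1g, without overlap, so the scale decided whether its groups overlapped. No setting that used TPM or effective length called it, the lowest adjusted p over all settings being 0.0953.

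The kinases upstream of CDC25C and WEE1 did not pass the test. PLK1 (ENSG00000166851.15, chromosome 16 from 23677656 to 23690367, forward strand), which also works at the spindle and in cytokinesis, had 113, 118 and 104 CPM in sµg, against 114, 112 and 108 CPM in 1g. The sµg libraries lay on both sides of the 1g libraries, and the log2 fold change was 0.01 (95% confidence interval −0.09 to 0.10, adjusted p = 0.900 from edgeR). AURKA, the Aurora kinase that activates PLK1 with the help of BORA (ENSG00000087586.18, chromosome 20 from 56369389 to 56392337, reverse strand), had 89.6, 91.1 and 87.4 CPM in sµg and 80.8, 87.0 and 82.8 CPM in 1g. Its groups did not overlap, but the log2 fold change of 0.10 (standard error 0.0417, 95% confidence interval 0.01 to 0.19) gave an unadjusted p of 0.0292 and an adjusted p of 0.077 from edgeR. Without sµg replicate 3 the change was 0.12 with an adjusted p of 0.0143 from edgeR. PLK1 shares 58 bases with ERN2 on the opposite strand, which had 11 counts on average in sµg and 24.7 in 1g.

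On the TPM scale, which allows levels of different genes to be set side by side, the 10 genes spanned a wide range in both conditions. CCNB1 was the most abundant, at 296 ± 1.56 TPM in sµg and 261 ± 6.49 TPM in 1g, followed by CCNB2 at 118 ± 1.86 TPM in sµg and 118 ± 2.64 TPM in 1g (SD, n = 3 each). CDK1 came next in both conditions. WEE1, PLK1 and CCNA2 formed a middle group, at 81.8, 81.1 and 78.3 TPM on average in sµg and 74.1, 77.0 and 70.8 TPM in 1g. Neighbours within that group overlapped in each condition, and their order was not the same in both. AURKA, at 66.4 ± 1.51 TPM in sµg and 61.8 ± 1.39 TPM in 1g, stood below them, and CDC25A followed at 54.3 ± 1.89 TPM in sµg and 52.9 ± 3.34 TPM in 1g. CDC25C and CDC25B had the lowest levels, CDC25C with 26.0 ± 0.889 TPM in sµg and 25.2 ± 2.71 TPM in 1g and CDC25B with 15.02 ± 0.781 TPM in sµg and 20.2 ± 0.682 TPM in 1g. Outside the middle group no 2 neighbours in the order overlapped within a condition.

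**Figure D3:**
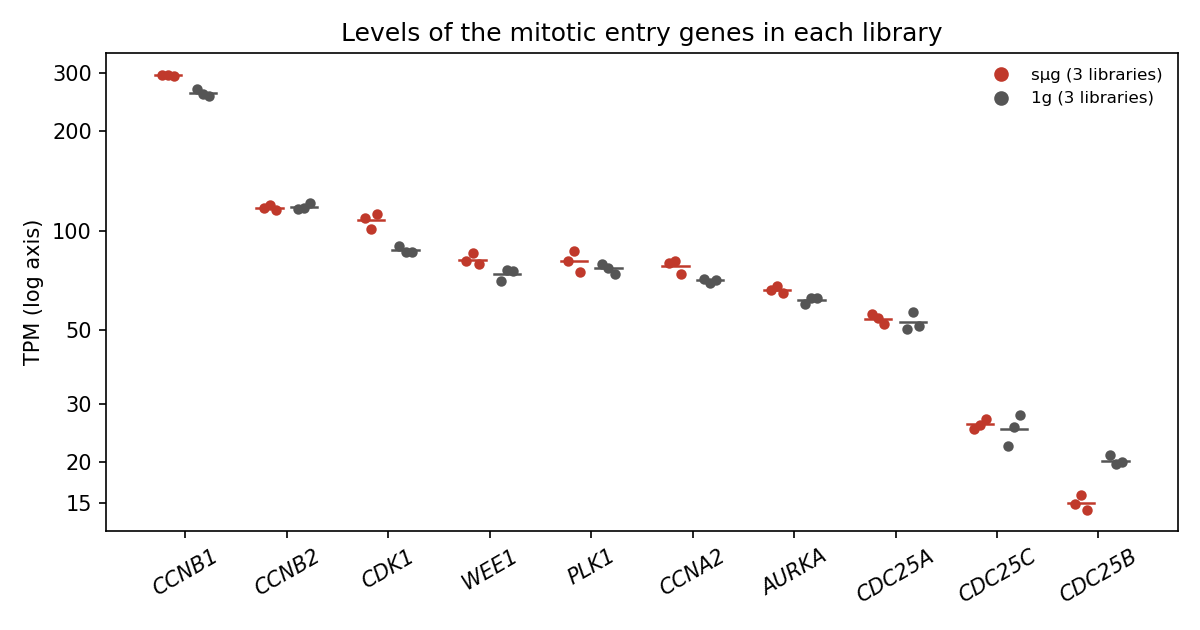
TPM (log axis) of the 10 genes, ordered by their mean in sµg, with 1 point per library (sµg red, left; 1g grey, right) and a line at each mean. CCNB1 stands highest at 294 to 297 TPM in sµg and 255 to 268 TPM in 1g, and CDC25B lowest at 14.3 to 15.9 TPM in sµg and 19.7 to 21.0 TPM in 1g.

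Transcript estimates were less precise than those of whole genes. The 10 genes have 76 transcripts in the tables, of which 51 were tested, and edgeR called 0 of them in either direction, against 1.76% of all 53807 transcripts tested. At an unadjusted p under 0.05 edgeR gave 5 higher and 4 lower, and limma on log2(TPM + 0.1) also called 0. For CDK1, CDK1-203 made up 74.5 ± 4.45% of the gene in sµg and 75.0 ± 2.66% in 1g (SD, n = 3 each). This transcript starts right after the promoter window printed for CDK1, and its TPM was 84.3, 78.0 and 78.2 in sµg and 68.3, 62.0 and 66.4 in 1g. Its log2 fold change of 0.25 had an unadjusted p of 0.00367 and an adjusted p of 0.105 from edgeR. CCNB1 came mostly as CCNB1-204 (60.2 ± 1.80% in sµg, 59.6 ± 0.558% in 1g) and CCNB1-201 (29.5 ± 0.924% in sµg, 30.7 ± 0.476% in 1g), with log2 fold changes of 0.15 and 0.08. The groups of shares overlapped for CDK1-203 and CCNB1-204.

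CDC25B was spread over 5 transcripts of at least 5% each, and the log2 fold change of all 5 was below 0. CDC25B-203 made up 62.1 ± 9.52% in sµg and 52.4 ± 7.18% in 1g (log2 fold change −0.23, adjusted p = 0.696 from edgeR). CDC25B-201 had 1.82, 1.65 and 2.27 TPM in sµg and 2.15, 3.20 and 3.29 TPM in 1g (log2 fold change −0.63, adjusted p = 0.325 from edgeR). The start behind the printed CDC25B window, shared by CDC25B-201 and CDC25B-205, took 12.3, 10.4 and 25.5% of the gene in sµg and 18.3, 29.1 and 22.3% in 1g, which overlapped. PLK1-201 held 89.1 ± 3.15% of PLK1 in sµg and 91.2 ± 0.571% in 1g, CCNB2-201 held 90.2 ± 2.30% of CCNB2 in sµg and 90.1 ± 0.655% in 1g, and CCNA2 has 1 transcript. WEE1 was spread most evenly, with WEE1-202 at 33.8 ± 5.90% in sµg and 39.2 ± 2.15% in 1g.

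Genes whose pattern over the 6 libraries lay nearest to that of CDK1 were found by the root mean square distance of centred log2 CPM, among 9685 protein-coding genes with a mean of at least 10 CPM. The 5 nearest were RIC1, RNASEH2B, KLHL7, ZNF830 and PMS1, at distances of 0.0186, 0.0228, 0.0243, 0.0251 and 0.0258 on the log2 scale. RNASEH2B encodes a subunit of ribonuclease H2 and PMS1 a relative of the mismatch repair proteins. Among the other 9 genes described here, CCNB1 was nearest to CDK1 at 0.0755 and CDC25B farthest at 0.358. RIC1 had 38.1, 36.1 and 39.7 CPM in sµg and 32.1, 30.7 and 30.8 CPM in 1g, with sµg replicate 2 the lowest of its group, as it was for CDK1. These distances describe 6 libraries that fall into 2 conditions, so any gene with a similar difference lies near.

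The wider pathway was described by 6 lists of other mitotic entry genes, written from textbook knowledge. Of 85 tested genes, 26 were higher in sµg, 11 were lower and 48 did not pass the test, against 15.5% higher and 18.2% lower among all genes tested, with a median log2 fold change of 0.08 beside 0.00571 over all genes. For 44 of them the groups did not overlap, against 45.5% of all genes. Without sµg replicate 3, 31 were higher and 11 lower, and without 1g replicate 1 or without 1g replicate 3 only 7 were lower.

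Among 8 partners and activators of CDK1, 2 were higher, 2 were lower and 4 did not pass the test, with a median log2 fold change of 0.04. CDK2, the kinase of S phase that also binds cyclin A, had 53.6, 53.6 and 58.0 CPM in sµg and 48.2, 49.4 and 48.0 CPM in 1g (log2 fold change 0.18, adjusted p = 0.00585 from edgeR). The CDK2 call was lost with an offset for effective length (log2 fold change 0.12, adjusted p = 0.339 from edgeR) and with limma on TPM (adjusted p = 0.251 and 0.254). CDK7, which phosphorylates the activation loop of CDK1, had 52.2, 49.9 and 60.0 CPM in sµg and 45.7, 48.0 and 46.9 CPM in 1g (log2 fold change 0.21, adjusted p = 0.0121 from edgeR), and its call was lost without 1g replicate 1 (adjusted p = 0.0659 from edgeR). CKS1B, a small subunit that binds CDKs, was lower with a log2 fold change of −0.12 (adjusted p = 0.0331 from edgeR), and CCNA1, the germ line cyclin A, was lower at 1.63, 1.14 and 1.17 CPM in sµg against 1.84, 2.04 and 2.16 CPM in 1g. The CKS1B call was lost without 1g replicate 1 or 3 or sµg replicate 1 or 2 (adjusted p = 0.151, 0.12, 0.18 and 0.0829 from edgeR). The CCNA1 call was lost without 1g replicate 1, 2 or 3 or sµg replicate 2 or 3 (adjusted p = 0.0652, 0.0914, 0.123, 0.134 and 0.118 from edgeR), and DESeq2 called neither gene.

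Of 15 tested inhibitory kinases and G2 checkpoint genes, 3 were higher, 2 were lower and 10 did not pass the test, with a median log2 fold change of 0.09. CDKN1A, the CDK inhibitor p21, had 8.75, 10.8 and 10.6 CPM in sµg, against 15.9, 13.7 and 15.1 CPM in 1g, without overlap (log2 fold change −0.57 with a standard error of 0.0934 and adjusted p = 0.000111 from edgeR). CHEK2, a checkpoint kinase that acts after double-strand breaks, was also lower, at −0.17 (adjusted p = 0.00898 from edgeR, and 0.0502 and 0.0505 in limma). ATR, the kinase that senses stalled replication, was higher with a log2 fold change of 0.24 (adjusted p = 0.00265 from edgeR), a call lost with the effective length offset (0.0633) and in limma (0.0956 and 0.0948). CLSPN, the adaptor that lets ATR activate CHEK1, was higher with 0.21 (adjusted p = 0.0168 from edgeR), a call lost without 1g replicate 1 or 3 (adjusted p = 0.109 and 0.0532 from edgeR), with the effective length offset (0.129) and in limma (0.138 with either pseudocount). The third gene that was higher, SFN (14-3-3 sigma), is named because of its values, at 3.27, 2.53 and 3.21 CPM in sµg and 2.02, 1.94 and 2.29 CPM in 1g. WEE2 had too few counts to be tested.

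Of 14 Aurora and Polo kinases and their partners, 3 were higher, 2 were lower and 9 did not pass the test, with a median log2 fold change of −0.03. BORA, the cofactor through which AURKA activates PLK1, had 27.5, 30.2 and 27.8 CPM in sµg and 24.6, 25.2 and 25.3 CPM in 1g (log2 fold change 0.19, adjusted p = 0.0176 from edgeR). That call was lost without 1g replicate 1 or sµg replicate 2 (adjusted p = 0.0774 and 0.0952 from edgeR), in DESeq2 (0.0709), with the effective length offset (0.154) and in limma (0.11 and 0.111). PLK4, which controls centriole duplication, was higher with 0.18 (adjusted p = 0.00332 from edgeR), as was CEP192, a centrosome scaffold named because of its value, with 0.14. The PLK4 call was lost with the effective length offset (adjusted p = 0.282 from edgeR) and in limma (0.284 and 0.287), and of the 3 higher genes DESeq2 called 1 and limma 0. The genes that were lower changed more. PLK2, a Polo-like kinase outside the mitotic core, had 11.8, 10.9 and 10.8 CPM in sµg, against 19.6, 20.8 and 20.4 CPM in 1g (log2 fold change −0.86 with a standard error of 0.0735 and adjusted p = 5.24e-08 from edgeR). AJUBA, a LIM protein that binds AURKA and also takes part in Hippo signaling, had 50.1, 48.2 and 49.0 CPM in sµg and 73.3, 73.6 and 68.0 CPM in 1g (log2 fold change −0.54, adjusted p = 4.74e-08 from edgeR).

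The Greatwall branch keeps the phosphatase PP2A-B55 off the substrates of CDK1. Of its 11 genes, 4 were higher, 1 was lower and 6 did not pass the test, with a median log2 fold change of 0.01. MASTL, the Greatwall kinase, had 73.3, 77.8 and 76.7 CPM in sµg and 67.0, 65.2 and 63.2 CPM in 1g (log2 fold change 0.22, adjusted p = 0.000642 from edgeR). ENSA, the PP2A-B55 inhibitor that MASTL phosphorylates, was higher with 0.18 (adjusted p = 0.00186 from edgeR), and the scaffold PPP2R1B with 0.17 (adjusted p = 0.00497 from edgeR, and 0.0622 and 0.0634 in limma). The regulatory subunit PPP2R2D was higher with 0.17 (adjusted p = 0.0401 from edgeR), a call lost without 1g replicate 2 or 3 or sµg replicate 1 or 2 (adjusted p = 0.166, 0.169, 0.0857 and 0.092 from edgeR), in DESeq2 (0.101), with the effective length offset (0.12) and in limma (0.0717 and 0.0727). The 1 lower gene was another regulatory subunit, PPP2R2C, named because of its value of −0.34 (adjusted p = 0.0412 from edgeR), and its groups overlapped. DESeq2 called 3 genes of this list higher and 0 lower, and each limma fit 2 higher and 0 lower.

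Of 14 transcription factors of G2/M genes, 3 were higher, 11 did not pass the test and 0 were lower. In that direction edgeR gave 0 at an unadjusted p under 0.05 as well, and DESeq2 and limma called 0. TFDP1, the partner of E2F factors, had 119, 122 and 120 CPM in sµg, against 95.9, 92.4 and 95.6 CPM in 1g (log2 fold change 0.34 with a standard error of 0.0379 and adjusted p = 1.28e-06 from edgeR). LIN9, a subunit of the MuvB core, was higher with 0.37 (adjusted p = 0.000611 from edgeR). NFYA, the subunit of NF-Y that contacts the CCAAT box, had 54.3, 56.2 and 58.9 CPM in sµg and 45.6, 45.1 and 47.0 CPM in 1g (log2 fold change 0.30, adjusted p = 8.16e-05 from edgeR). Its partner NFYB had a log2 fold change of 0.10 and did not pass the test (adjusted p = 0.0667 from edgeR).

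The largest list held 23 genes of the APC/C and SCF ubiquitin ligases and of the degradation of mitotic regulators. Of these, 11 were higher, 4 were lower and 8 did not pass the test, with a median log2 fold change of 0.11. CUL1, the scaffold of SCF, had 126, 126 and 132 CPM in sµg, against 105, 107 and 108 CPM in 1g (log2 fold change 0.27, adjusted p = 2.51e-05 from edgeR). The APC/C subunits CDC27 and CDC16 were higher with 0.27 and 0.23 (adjusted p = 9.69e-05 and 0.00033 from edgeR). FBXW11, an F-box protein that targets WEE1 for degradation, was lower at 114, 109 and 107 CPM in sµg, against 129, 129 and 127 CPM in 1g (log2 fold change −0.22, adjusted p = 0.000183 from edgeR, and 0.0679 and 0.0688 in limma). The other lower genes, named because of their values, were UBE2S (−0.21), ANAPC16 (−0.22) and ANAPC2 (−0.15), with adjusted p = 0.00306, 0.000527 and 0.0495 from edgeR. Over this list DESeq2 called 9 genes higher and 3 lower, and each limma fit 8 higher and 1 lower.

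**Figure D4:**
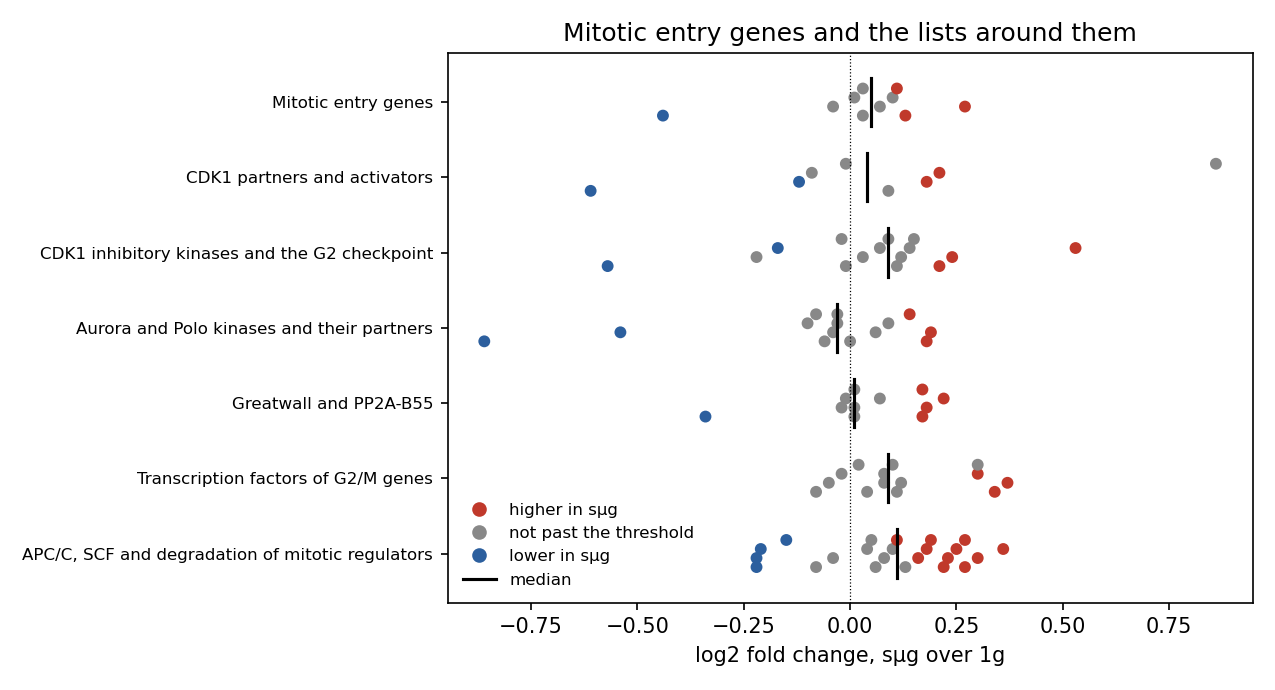
Log2 fold change of sµg over 1g for the 10 mitotic entry genes and for the 6 lists of other pathway genes, 1 point per tested gene (red higher, blue lower, grey not past the threshold) with a black line at each median. The medians lie between −0.03 and 0.11, and the lowest points are PLK2 at −0.86, CCNA1 at −0.61 and CDKN1A at −0.57. The highest point, named because of its value, is CCNB3 at 0.86, with 36 counts in sµg and 23 in 1g. It did not pass the test (adjusted p = 0.115 from edgeR).

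Other genes moved between the conditions alongside these. Of 4 proliferation genes, 2 were higher and 0 lower, against 15.5% higher and 18.2% lower among all genes tested. At an unadjusted p under 0.05 in edgeR 0 were lower as well. DESeq2 likewise called 2 higher and 0 lower, and limma called 0 in either direction. MKI67, expressed in all phases of cycling cells, had 258, 257 and 215 CPM in sµg and 204, 219 and 211 CPM in 1g, which overlapped (log2 fold change 0.20, adjusted p = 0.0416 from edgeR). Its call was lost without 1g replicate 1 or 3 or sµg replicate 1 or 2 (adjusted p = 0.118, 0.0831, 0.11 and 0.106 from edgeR). All 7 markers of trophectoderm and amnion were lower, and their summed level was 13.4 to 16.1 CPM in sµg and 56.6 to 59.0 CPM in 1g. Of 10 pluripotency genes, 4 were lower and 6 did not pass the test, among them POU5F1, NANOG and SOX2 with log2 fold changes of 0.02, −0.08 and 0.01. The 4 lower genes, named because of their values, were PODXL (−0.74), DNMT3B (−0.50), LIN28A (−0.37) and SALL4 (−0.18). DESeq2 called 4 genes of this list lower and each limma fit 3. The summed level of the 10 genes was 10200 to 10400 CPM in sµg and 12600 to 12900 CPM in 1g. NANOG was called lower without sµg replicate 3 (log2 fold change −0.11, adjusted p = 0.00561 from edgeR). Of 8 mesoderm and endoderm markers 4 were tested and 1 was lower, of 6 neural markers 4 were tested with 1 higher and 3 lower, and of 7 fibroblast markers 4 were tested with 1 higher and 3 lower. Fibroblast markers are named here because of their values. Over the 3 libraries of each condition, DCN and LUM had 0 and 1 counts in sµg and 1 and 3 counts in 1g. Others were expressed, with COL1A1 (log2 fold change −1.91), PDGFRA (−0.66) and COL1A2 (−0.38) lower and THY1 (0.31) higher. COL1A1 had 88.3, 94.5 and 77.9 CPM in sµg and 333, 319 and 329 CPM in 1g. For the mesoderm and endoderm, neural and fibroblast lists, summed levels were 2.60 to 3.39, 456 to 486 and 497 to 526 CPM in sµg. In 1g they were 4.36 to 5.09, 531 to 551 and 700 to 722 CPM. Of the reference genes, GAPDH was higher with a log2 fold change of 0.19, ACTB was lower with −0.17 (not in limma, adjusted p = 0.116 and 0.119) and TBP did not pass the test with 0.01. The mitochondrial genome gave 4.11 to 4.76% of counts in sµg and 5.23 to 5.33% in 1g. The part of these differences in the changes of CDK1, CCNB1, CCNA2 and CDC25B was not tested.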

How the data were processed

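RNA from 3 sµg and 3 1g libraries, made with a stranded poly(A) kit, was analysed from 12 tables (genes and transcripts of each library). The authors used STAR 2.7.7a (alignment, GRCh38.p13) and RSEM 1.3.3 (quantification) at default settings, which do not use strand, and the study made versions under different alignment filters, without stating which was deposited. The deposited expected counts are estimated numbers of read pairs, not normalized between libraries. The authors' TPM values are the same estimates corrected for effective length, with an equal sum in each library, and the deposited percent of each transcript within its gene (IsoPct) was used for transcript shares.

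Expected counts were rounded and tested in R 4.3.3 with edgeR 4.0.16 (quasi-likelihood, robust, TMM scaling, condition as the single factor, Benjamini-Hochberg adjusted p under 0.05) after filterByExpr (count of 10, total of 15). Scaling factors were 0.988 to 1.01 and the biological coefficient of variation was 3.96%. Transcripts were tested likewise. Depth was 19971097 to 28506848 expected counts per library, and with as few as 616 counts of a gene in a library, counting error is part of the spread between libraries.

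The 10 genes, the lists and the tests were chosen with earlier results of these data known. The rule for named genes takes the 10 genes, up to 4 genes of each pathway list with the smallest adjusted p, POU5F1, NANOG, SOX2, MKI67, GAPDH, TBP and ACTB, and the 5 genes nearest to CDK1; others are marked as named because of their values. Positions and symbols are from GENCODE 44 (GRCh38), where 60419 genes were found, and promoters from RefSeq.

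Alternatives were DESeq2 1.42.0, RLE factors, library totals only, no filter, a filter requiring 10 counts in each library, an effective length offset, limma 3.58.1 on log2(TPM + 0.1) or log2(TPM + 1), a replicate block, leaving out each library, thinned counts, no mitochondrially encoded genes, an adjusted p under 0.01 and a minimum absolute change of 0.2 (log2). Counts made with Salmon were not analysed here.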

Additional observations from a re-analysis of the deposited data

How the results depend on the processing

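CDK1, CCNB1 and CDC25B were called in the same direction in all 17 other fits, with log2 fold changes of 0.24 to 0.31, 0.12 to 0.18 and −0.46 to −0.40 and adjusted p of at most 0.00925, 0.049 and 0.00523. CCNA2 was called in 8 of the 17, at adjusted p of 0.00108 to 0.109, and lost its call with the effective length offset (0.107), both limma fits (0.0796 with 0.1 added, 0.0801 with 1) and no filter (0.0571). AURKA was called in 2, with library totals only (0.0198) and without sµg replicate 3. With a minimum absolute change of 0.2 (log2) only 1 of the 10 genes was higher, beside 3. Over all genes, 2591 were higher, but 1242 with the effective length offset, 1480 and 1495 with limma (0.1 and 1 added), 1587 at an adjusted p under 0.01 and 1696 with the minimum change of 0.2. Against 3057 lower genes, the effective length offset gave 1864 and limma 1444 and 1459. DESeq2 called 4321 genes in all, beside 5648. Of the other mitotic entry genes 26 were higher, but 14 with the effective length offset and 15 with each limma fit or the minimum change. Against 11 lower, DESeq2, the effective length offset, library totals only and an adjusted p under 0.01 each gave 7, and both limma fits 4. With a library left out in turn, 2 to 4 of the 10 genes were higher and 1 lower, 19 to 31 and 7 to 11 of the other mitotic entry genes, and 1879 to 2967 and 2464 to 3224 of all genes. The stricter thresholds pass fewer genes by construction, and the other causes were not tested. Fits without a library rest on fewer samples, yet without sµg replicate 3 more genes were called in all (6191, beside 5648).

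Changes near 0 turned sign without being called. With a library left out, PLK1 ran from −0.03 to 0.06 (below 0 without 1g replicate 3 or sµg replicate 2), POU5F1 from −0.04 to 0.05 (below 0 without sµg replicate 3), SOX2 from −0.02 to 0.05 (below 0 without 1g replicate 2 or 3 or sµg replicate 3) and TBP from −0.03 to 0.03 (below 0 without 1g replicate 2 or sµg replicate 3), and TBP was −0.02 with thinned counts. Over the named genes outside the 10 and all fits, the direction and side of the threshold stayed in 525 cases. A call was lost in 78 and gained in 2, and the sign turned in 7, which include the turns of POU5F1, SOX2 and TBP above. The study describes the 1g samples as matched controls, and no sample title says which library matches which. Deviations of same-numbered libraries correlated at −0.037, 0.036 and −0.019, beside −0.041 to 0.064 for libraries with different numbers. These correlations cannot show whether the samples were paired, since matching need not follow the numbers. With the replicate block 3 of the 10 genes were higher and 1 lower, with 26 and 8 of the other mitotic entry genes. Changes of about 0.1 on the log2 scale, such as those of CCNA2 and AURKA, lay at the limit of what 3 against 3 libraries could call.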
